A study of Mus musculus with 8 samples.

Results

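The mitochondrial genome is a small circle of DNA that is copied and read by proteins made from nuclear genes. The 10 nuclear genes described here, Tfam, Polrmt, Tfb1m, Tfb2m, Twnk, Polg, Polg2, Lrpprc, Slirp and Mterf3, were chosen by name for their roles in mitochondrial DNA transcription, replication and transcript stability. All 10 were found among the 54385 gene identifiers of the deposited table, and all 10 were among the 14553 genes with enough counts to be tested. The question asked of them was how their transcripts stood in each library, whether they differed between control and knockout brown fat, and how they ran beside the share of counts that came from the mitochondrial genome.

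In transcription, the RNA polymerase Polrmt starts at promoters bound by the packaging protein Tfam with the help of Tfb2m, while Mterf3 is known as a repressor of initiation. In replication, the helicase Twnk opens the circle ahead of the polymerase made of Polg and its accessory subunit Polg2. Tfb1m methylates the small mitochondrial ribosomal RNA, and Lrpprc with its partner Slirp keeps mitochondrial messenger RNAs stable. Brown fat burns fuel in very numerous mitochondria and so depends on this machinery.

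Polyadenylated RNA was measured in brown adipose tissue of C57BL/6N mice at 20 weeks of age on chow, in 4 control (WT) and 4 knockout (cKO) libraries. The genotype entries are Adcy3-FL/FL/Adipoq-wt/wt for WT replicates 1, 2 and 3 and Adcy3-FL/FL/Adipoq-wt/cre for all cKO replicates, so that floxed Adcy3, the gene of adenylyl cyclase 3, is shared by both groups and the Cre acts in adipocytes. WT replicate 4 is titled as a control but has the Cre in its genotype entry, and it was kept with WT by its title. The sample labels name the interscapular depot and the design text calls it inguinal. Nothing in the labels ties each library to its own animal, and the p-values below describe only the spread between libraries, which may be technical. In bulk tissue, fewer cells of a type and less RNA per cell cannot be told apart.

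Totals ran from 10712795 to 32436907 counts per library. Adcy3 stood at 112, 118, 61.7 and 118 CPM (library-scaled counts per 1e+06, using TMM factors) in WT replicates 1 to 4 and at 17.95, 20.9, 25.3 and 21.5 CPM in cKO, without overlap. WT replicate 4 thus lay with the controls, although its genotype entry has the Cre. Results with it moved to cKO are given below only as an alternative. All 8 brown adipocyte markers were detected, with a summed level of 11060 to 12864 CPM in WT and 9842 to 13902 CPM in cKO. The 10 skeletal muscle markers summed to 69.1 to 7971 CPM in WT and 178 to 10159 CPM in cKO. The highest sums were in cKO replicate 1 (10159 CPM) and WT replicate 4 (7971 CPM), followed by cKO replicate 2 (2993 CPM). The part of muscle transcripts in the results below was not tested. WT replicate 3 stood apart in transcript length. Its median deviation from the mean of the 8 libraries was -0.16 log2 units over 2590 genes with transcripts of at least 5 kb and 0.21 over 1919 genes of at most 1.5 kb. The next largest deviations were in cKO replicate 1 for short genes (-0.12) and in cKO replicate 3 for long genes (-0.11).

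The start sites of these genes are shown first, because binding sites of the ETS family factor GABPA (also called NRF-2) and of NRF1 are textbook features of genes for mitochondrial DNA upkeep. RefSeq promoter windows on GRCm38.p6, from 250 bases before to 50 bases after the start, were found for 9 of the 10 genes, Mterf3 being the one with no entry. The letters CCGGAAG, an ETS-type core searched on both strands, occurred in windows of 6 of these 9 genes. They occurred in 8.86% of all 32851 windows and in 11.6% of the 21263 windows of protein-coding genes. The following stretches show that core in capitals, written as CTTCCGG where it lies on the other strand, read 5′ to 3′ along the strand of the gene.
Tfam, chr10:71238074-71238102, minus strand: cctgccgcggaCCGGAAGtccgggcttcc
Polrmt, chr10:79746607-79746635, minus strand: ccctaagagcgCTTCCGGcagtcgcagaa
Twnk, chr19:45006437-45006465, plus strand: ctaaccggtgaCTTCCGGttccggggttg
Twnk, chr19:45006481-45006509, plus strand: ggagagttttgCTTCCGGagtcaccgcga
Polg, chr7:79466294-79466322, minus strand: gaggacctcacCCGGAAGtccctctgcac
Polg2, chr11:106779549-106779577, minus strand: cgggtgacgctCTTCCGGgggcgtggtct
Slirp, chr12:87443837-87443865, plus strand: aacagtttggcCCGGAAGcagaactcgaa

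In these stretches the core begins 47 bases before the start site in Tfam, 43 in Polrmt, 110 and 66 in Twnk, 38 in Polg, 29 in Polg2 and 48 in Slirp. Slirp has the core at 2 further places, 146 and 11 bases before its start, and Twnk has a further window without it. The windows of Tfb1m, Tfb2m and Lrpprc do not hold these letters. The core GCATGCG of the NRF1 site was in the windows of 2 genes, Polrmt and Tfb2m, against 3.58% of all windows, and the longer NRF1 palindrome that contains it was in windows of 0 of the 9 genes, against 0.971%. The cyclic AMP response element TGACGTCA was also in none of them, against 1.79% of all windows, while its first letters TGACG were in windows of 6 genes (Lrpprc, Polg, Polg2, Slirp, Tfb1m and Twnk), against 20.8%. AAGATGGC, a YY1-type motif, was in 1, that of Slirp, against 2.75%. Among windows of protein-coding genes the rates were 4.44% (GCATGCG), 1.33% (NRF1 palindrome), 2.23% (TGACGTCA), 23.6% (TGACG) and 3.05% (AAGATGGC). All rates are per window, while the counts are per gene. All searches covered both strands, and TGACG is part of TGACGTCA. A match of letters is a description and shows no binding.

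No gene of the 10 passed the test between cKO and WT. In simulated data the edgeR test recovered 0% of 200 genes changed 1.5-fold, 49.5% changed 2-fold and 85% changed 4-fold. The absence of calls thus does not show that levels were equal. By edgeR's quasi-likelihood test with Benjamini-Hochberg adjustment over all genes, 0 of 10 were called at an adjusted p of 0.05, against 0.0687% of all genes tested, and 0 had an unadjusted p under 0.05, against 5.6%. DESeq2 called 0 of 10 (0.27% of all genes), limma-voom 0 of 10 (0.0687%), and edgeR on unfiltered counts 0 of 10 (0.262%). The groups overlapped in every gene of the 10, whereas they did not overlap for 3.5% of all genes tested. The log2 fold changes ran from -0.14 (Polg) to 0.34 (Twnk), with 7 positive and 3 negative and a median of 0.13, against a median of 0.01 and 51.8% positive over all genes tested.

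**Figure D1:**
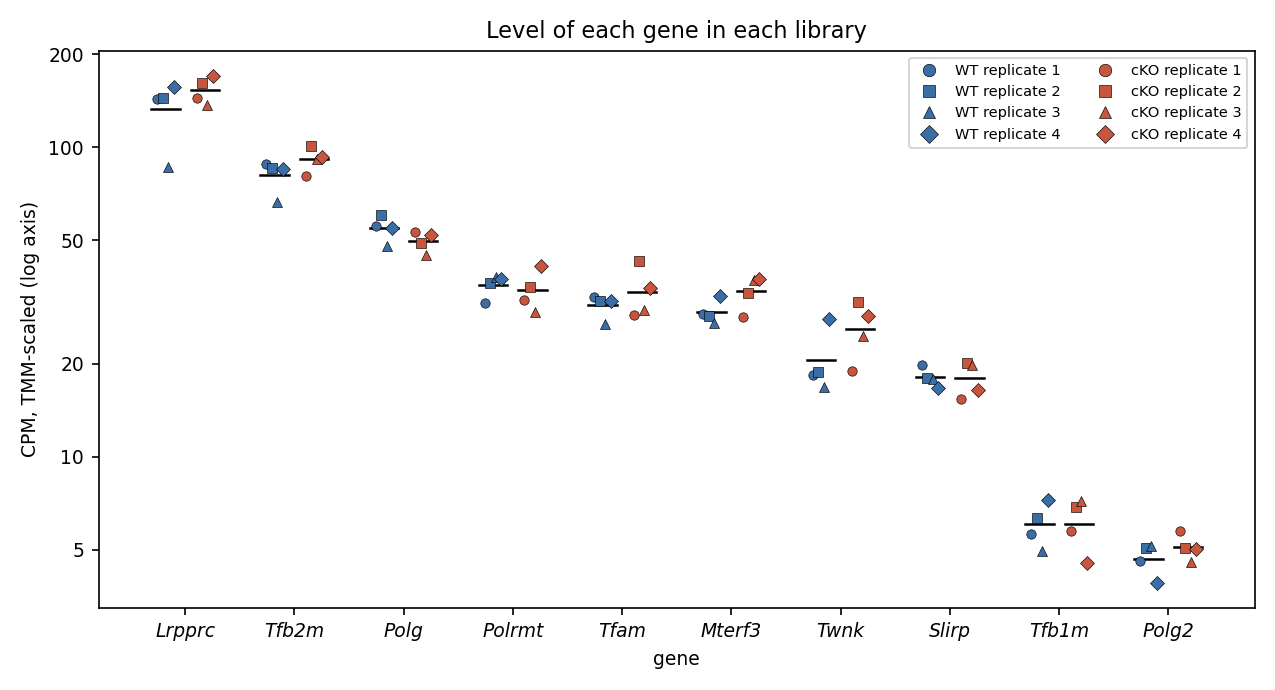
Level of each of the 10 genes in each library, as TMM-scaled CPM on a log axis, with WT in blue, cKO in red, one symbol per replicate number and the group mean as a black bar. WT replicate 3 (blue triangle) is the lowest library for 5 genes, among them Lrpprc at 86.4 CPM.

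Positions of genes below are on GRCm38, and all 10 are protein-coding. Among the initiation factors, Tfam (chromosome 10, 71225464 to 71238280, minus strand), which packages and bends the mitochondrial DNA, had 32.9, 31.9, 26.9 and 31.9 CPM in WT and 28.7, 42.8, 29.7 and 35.1 CPM in cKO. Its cKO libraries included the highest value of all, in replicate 2, and 2 of 4 lay below the WT mean. The means were 30.9 ± 2.72 and 34.1 ± 6.47 CPM (SD, n = 4 each), a log2 fold change of 0.14 (95% interval from -0.16 to 0.44, edgeR adjusted p = 0.923). Leaving out cKO replicate 2 brought it to 0.01, and leaving out cKO replicate 1 to 0.22.

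Polrmt (chromosome 10, 79736123 to 79746581, minus strand), the RNA polymerase itself, had 31.4, 36.5, 38.0 and 37.5 CPM in WT. In cKO it had 32.1, 35.4, 29.4 and 41.4 CPM, so the lowest and the highest library were both knockouts. The log2 fold change was -0.05 (95% interval from -0.32 to 0.22, edgeR adjusted p = 0.976).

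Tfb2m (chromosome 1, 179528055 to 179546267, minus strand), which helps the polymerase to open the promoter, had 88.5, 85.9, 66.5 and 85.2 CPM in WT. In cKO it had 80.6, 100.8, 91.5 and 92.8 CPM, with 3 of 4 libraries above every WT library and replicate 1 below 3 of them. The log2 fold change was 0.17 (95% interval from -0.09 to 0.42, edgeR adjusted p = 0.901) and 0.08 without WT replicate 3, the lowest library. Of its 31-base sequences 36.4% also occur in other genes, above all Gm1818, which had 0 counts in every library.

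Tfb1m (chromosome 17, 3519256 to 3557781, minus strand), the relative of Tfb2m that methylates ribosomal RNA, was far scarcer. It had 5.63, 6.36, 4.97 and 7.25 CPM in WT and 5.76, 6.89, 7.17 and 4.53 CPM in cKO, from 61 to 181 counts per library. Both groups covered almost the same range, and the log2 fold change was 0.01 (95% interval from -0.42 to 0.44, edgeR adjusted p = 0.996). The log2 ratio of Tfb1m to Tfb2m averaged -3.73 ± 0.17 for WT libraries and -3.90 ± 0.29 for cKO libraries (exact permutation p = 0.429, two-sided, n = 4 per group).

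Mterf3 (chromosome 13, 66906968 to 66933088, minus strand), the repressor, had 28.9, 28.6, 27.0 and 33.1 CPM in WT and 28.3, 33.9, 37.2 and 37.6 CPM in cKO. The cKO replicates 2, 3 and 4 lay above every WT library and replicate 1 among them. Its means were 29.4 ± 2.58 and 34.2 ± 4.31 CPM, with a log2 fold change of 0.22 (95% interval from -0.04 to 0.48). It had the lowest p of the 10 (unadjusted 0.0915), which gave an edgeR adjusted p of 0.890 over all genes. The unadjusted p was 0.0362 with WT replicate 4 moved to cKO (log2 fold change 0.28, edgeR adjusted p = 0.699), though Adcy3 in that library was at the control level.

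Among the replication genes, Twnk (chromosome 19, 45005663 to 45012762, plus strand), the helicase, had the largest log2 fold change of the 10. Its levels were 18.4, 18.8, 16.8 and 27.9 CPM in WT and 18.9, 31.6, 24.5 and 28.6 CPM in cKO. WT replicate 4 lay with the cKO libraries and cKO replicate 1 with the other WT libraries. The means of 20.5 ± 5.03 and 25.9 ± 5.48 CPM gave a log2 fold change of 0.34 (95% interval from -0.07 to 0.75, edgeR adjusted p = 0.890). Without WT replicate 4 it was 0.53, and with that library moved to cKO by its genotype entry it was 0.55 (unadjusted p = 0.00393, edgeR adjusted p = 0.685). Adcy3 in that library was at the control level. Twnk shares 13.3% of its 31-base sequences with other genes, above all the antisense neighbour Mrpl43. That part is 14.4% for Mterf3 (8.90% on its own strand), 10.1% for Tfb1m, 7.42% for Polg and 6.41% for Polg2. For Lrpprc, Tfam and Polrmt it is at most 1.43%.

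Polg (chromosome 7, 79446231 to 79466362, minus strand), the catalytic subunit of the DNA polymerase, was the one gene of the 10 with every cKO library below the WT mean. It had 55.8, 60.5, 48.1 and 54.7 CPM in WT and 53.2, 49.0, 44.9 and 52.0 CPM in cKO. The log2 fold change was -0.14 (95% interval from -0.37 to 0.09, edgeR adjusted p = 0.901), and -0.08 without WT replicate 2. Polg2 (chromosome 11, 106768253 to 106779537, minus strand), the accessory subunit, had 4.603, 5.07, 5.17 and 3.93 CPM in WT and 5.76, 5.09, 4.57 and 5.05 CPM in cKO, from 51 to 148 counts. Its groups overlapped, with a log2 fold change of 0.12 (95% interval from -0.27 to 0.52, edgeR adjusted p = 0.955). Without WT replicate 4 it was 0.06.

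The ratio of Polg to Polg2 CPM was 12.1, 11.9, 9.32 and 13.9 in WT and 9.24, 9.63, 9.83 and 10.3 in cKO. The log2 ratio differed by -0.26 between cKO and WT (exact permutation p = 0.114, two-sided, n = 4 per group, adjusted p = 0.343 over 3 ratios). WT replicate 3 was the library that overlapped with cKO. Without it the difference was -0.37 (exact permutation p = 0.0286, the smallest such a test can give), and with WT replicate 4 moved to cKO it was -0.08. Leaving out the overlapping library separates the groups fully, so that smallest p followed from the choice of library and is no further evidence. The principal transcript is 7.84 kb long for Polg and 1.51 kb for Polg2. WT replicate 3 and, less so, cKO replicate 3 had low levels of long transcripts and high levels of short ones. The part of transcript length in this ratio was not tested.

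Lrpprc (chromosome 17, 84705247 to 84790789, minus strand), an RNA-binding protein of mitochondrial messenger RNAs, was the most abundant of the 10 in CPM. It had 143, 144, 86.4 and 157 CPM in WT and 144, 161, 137 and 169.7 CPM in cKO. WT replicate 3, the library with low levels of long transcripts, was below the other 7 libraries, and the part of transcript length in this was not tested. The log2 fold change was 0.21 (95% interval from -0.16 to 0.57, edgeR adjusted p = 0.901), and 0.05 without WT replicate 3.

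Slirp (chromosome 12, 87443896 to 87452206, plus strand), its binding partner, had 19.7, 18.004, 17.8 and 16.7 CPM in WT and 15.4, 20.1, 19.8 and 16.4 CPM in cKO. The groups overlapped, with a log2 fold change of -0.01 (95% interval from -0.29 to 0.26, edgeR adjusted p = 0.992). Of its 31-base sequences 94.1% occur in other genes on the opposite strand, above all Snw1, and 0% in genes on its own strand. The sources used here give no strand setting, and without strand the reads of Slirp and Snw1 cannot be told apart. The log2 ratio of Lrpprc to Slirp was 2.83 ± 0.41 in WT and 3.09 ± 0.25 in cKO (exact permutation p = 0.371, two-sided, n = 4 each, adjusted p = 0.429 over 3 ratios), and the difference of 0.26 was 0.07 without WT replicate 3.

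**Figure D2:**
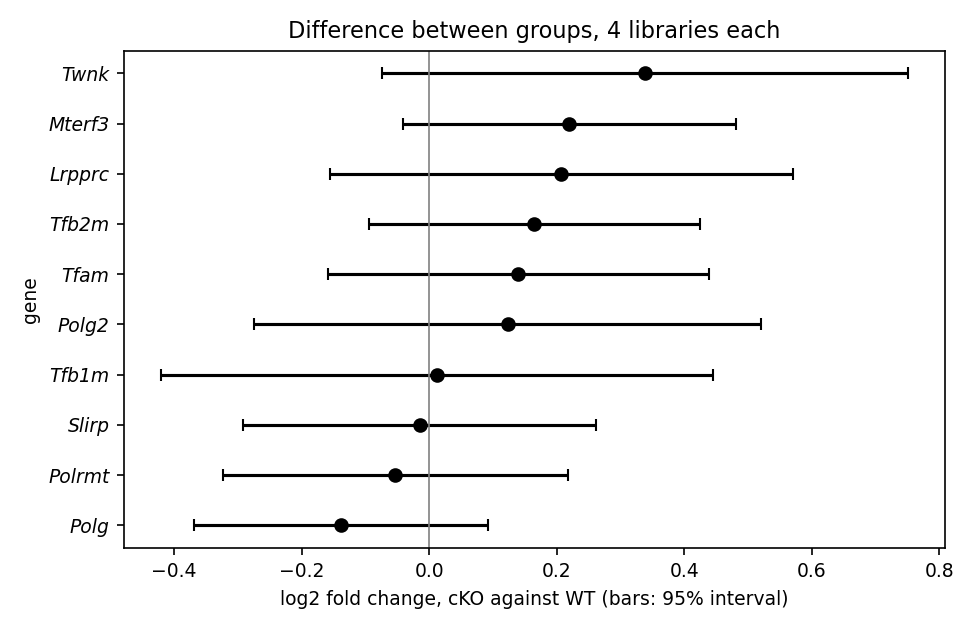
Log2 fold change of each gene between cKO and WT (points) with its 95% interval (bars), from edgeR with 4 libraries per group. Every interval includes 0, from Polg at -0.14 to Twnk at 0.34.

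Levels between genes can be compared only per length. Per kilobase of the APPRIS principal transcript, the reference isoform of each gene, and over all 8 libraries, Tfb2m (35.3 ± 4.11 CPM per kb) and Lrpprc (32.5 ± 5.75) were highest. Mterf3 followed with 21.5 ± 2.83 CPM per kb. Polrmt (9.38 ± 1.06), Tfam (7.80 ± 1.18), Polg (6.67 ± 0.63), Slirp (6.66 ± 0.65) and Twnk (6.65 ± 1.62) formed a middle group. Tfb1m (4.33 ± 0.73) and Polg2 (3.26 ± 0.36) were lowest. In that order the ranges over libraries of each gene and the next overlapped except between Mterf3 and Polrmt. Overlap of ranges does not compare 2 genes within a library. Lrpprc stood above Mterf3 in every library, also in WT replicate 3 (19.7 against 18.3 CPM per kb). The order rests on the length chosen for Polg, Tfam, Slirp and Mterf3, whose annotated coding transcripts differ much in length. With the mean length of coding transcripts Mterf3 stood at 45.1 and Polg at 37.0 CPM per kb.

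Over the 8 libraries the level in the highest library was 1.31 (Slirp) to 1.97 times (Lrpprc) that in the lowest, with a median of 1.49. Over the 9239 tested genes with mean CPM in the same range, 4.90 to 143, the median was 1.54. The genes did not share 1 order of libraries. WT replicate 3 was the lowest library for 5 genes (Tfam, Tfb2m, Twnk, Lrpprc and Mterf3), cKO replicate 2 was the highest for 4 (Tfam, Tfb2m, Twnk and Slirp) and cKO replicate 4 for 3 (Polrmt, Lrpprc and Mterf3). Summed over the 10 genes, levels were 429, 435, 338 and 455 CPM in WT and 413, 487, 426 and 483 CPM in cKO.

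Genes with a pattern most like that of Tfam over the 8 libraries, by Pearson r of log2 CPM among 7828 nuclear protein-coding genes with a mean of at least 10 CPM, were Hmgcs1 (0.98), Gabpa (0.97), Trip11 (0.96), Slc35e2 (0.96) and Pex11a (0.96). Of the other 7 genes described that reach that mean, Tfb2m came at place 206 with 0.83, Twnk at 550 with 0.74 and Lrpprc at 841 with 0.68. Mterf3 (0.47), Slirp (0.38), Polrmt (0.20) and Polg (0.07) came at places 1941 to 4103. For Lrpprc the closest were Zfyve9, Fbxo3 and Dmxl1 (0.99 each), then Kdm6a and Usp25 (0.98 each), while Tfb2m came at place 336 with 0.88 and its partner Slirp at 4718 with -0.07. The other 5 had an r with Lrpprc between 0.01 (Polrmt) and 0.68 (Tfam). These values describe 8 libraries only. All 5 genes closest to Tfam and all 5 closest to Lrpprc had their lowest level in WT replicate 3, as Tfam and Lrpprc did. They were chosen for a high r with these genes, so the shared lowest library is no separate result.

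The mitochondrial share of counts, the part of each library from genes on the mitochondrial chromosome, was 25.3, 24.7, 27.2 and 27.8% in WT and 26.8, 31.7, 31.2 and 31.3% in cKO. The 8 values fell into 2 sets, 5 libraries at 24.7 to 27.8% and 3 at 31.2 to 31.7%, with 3.46 percentage points between them, which is 49.4% of the whole range. The higher set held cKO replicates 2, 3 and 4, and cKO replicate 1 lay among the WT libraries. Because of this split no correlation over all 8 libraries is given, and the slopes below rest on the same 2 sets. The difference between groups was 4.00 percentage points (exact permutation p = 0.0857, two-sided, n = 4 per group) and 5.15 without cKO replicate 1 (exact permutation p = 0.0286, the smallest such a test can give). Leaving out the only cKO library among the WT values separates the groups fully, so that smallest p followed from the choice of library.

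**Figure D3:**
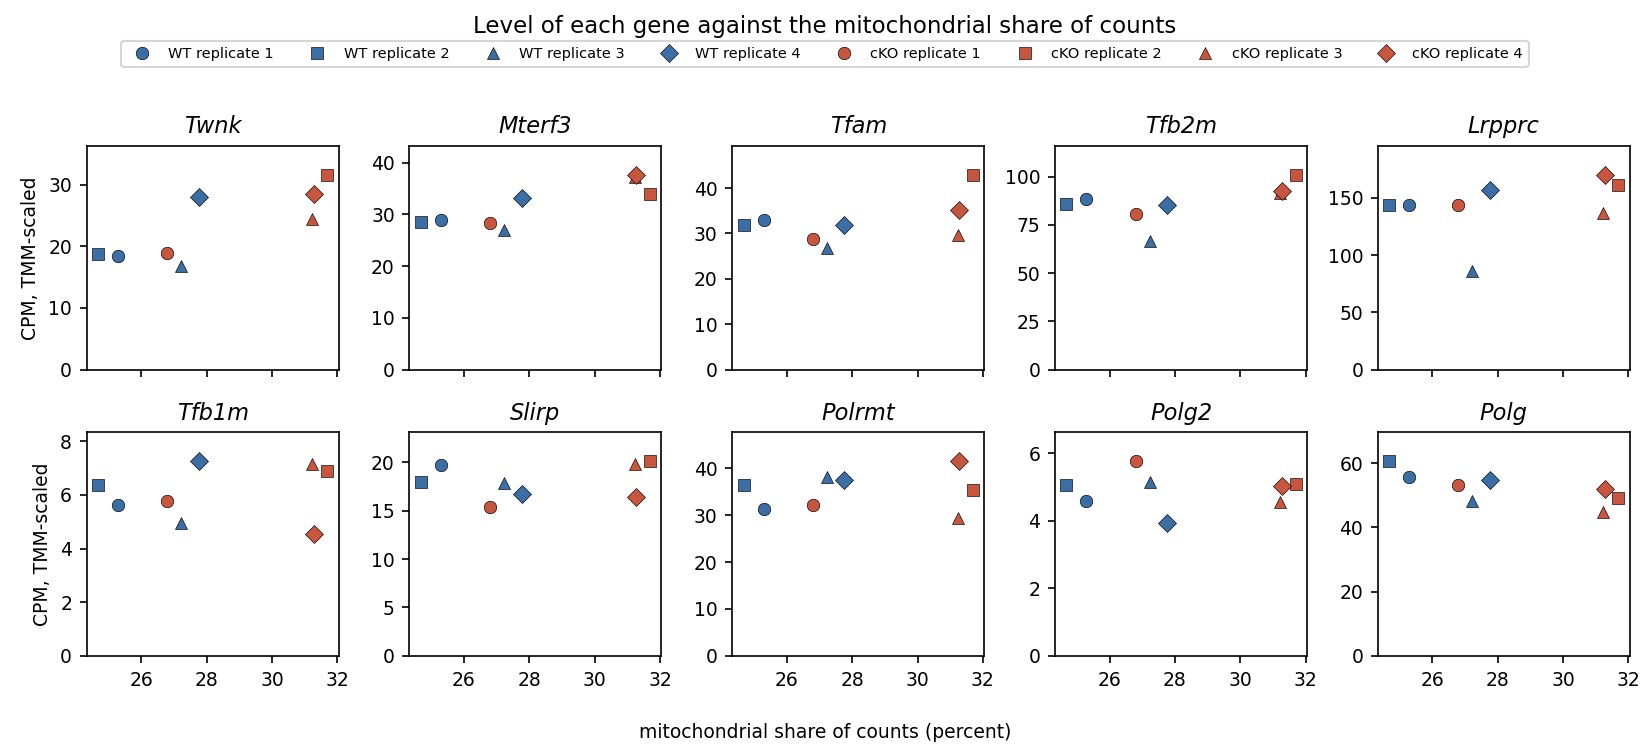
TMM-scaled CPM of each gene (vertical axes, from 0) against the mitochondrial share of counts in percent (horizontal axes), 1 point per library, WT in blue and cKO in red. The 3 libraries with a share of 31.2 to 31.7% hold Twnk at 24.5 to 31.6 CPM and the other 5 at 16.8 to 27.9 CPM, which overlap.

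A slope on the share was fitted for every nuclear gene with edgeR's quasi-likelihood test, as the change in log2 level per percentage point of share. It called 0 of 14519 nuclear genes (0%) after adjustment, and 6.18% had an unadjusted p under 0.05. In simulated data this fit recovered 0.5% of 200 genes with a slope of 0.1 and 77% with a slope of 0.3. Of the 10 genes 0 were called, 2 had an unadjusted p under 0.05, both with a positive slope (3.2% of nuclear genes), and 8 had a positive slope, against 48.5% positive among all nuclear genes. CPM values of nuclear genes share a total with mitochondrial ones, but slopes changed little when mitochondrial counts were removed before scaling (Twnk 0.10 with and without them). The higher of the 2 sets of libraries is cKO only, so that share and genotype are partly confounded.

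Twnk had the steepest slope of the 10, 0.10 per percentage point (95% interval from 0.04 to 0.16, unadjusted p = 0.0036, edgeR adjusted p = 0.664). The 3 libraries of the higher set, cKO replicates 2, 3 and 4, had 31.6, 24.5 and 28.6 CPM, and WT replicate 4, in the lower set, had 27.9 CPM, so the sets overlapped. With group as a further term its slope was 0.13 (95% interval from 0.03 to 0.23, unadjusted p = 0.0155, edgeR adjusted p = 0.793). Mterf3 followed with 0.06 (95% interval from 0.01 to 0.10, unadjusted p = 0.013, edgeR adjusted p = 0.718), and with group as a further term its unadjusted p was 0.0763. With that term 1 of the 10 genes, Twnk, had an unadjusted p under 0.05, against 6.25% of nuclear genes. Without cKO replicate 1 it was 2 of 10, Twnk and Mterf3, against 5.66%. Tfam had a slope of 0.04, Tfb2m of 0.03 and Lrpprc of 0.03, each with an interval that includes 0. Without cKO replicate 2 the slope was 0.0072 for Tfam and 0.021 for Tfb2m, and without cKO replicate 4 it was 0.017 for Lrpprc. Polg had the most negative slope, -0.04 (95% interval from -0.077 to 0.0050, unadjusted p = 0.0799). Beside these slopes, all 10 muscle markers had negative slopes (median -0.12) and 6 of 8 brown adipocyte markers positive ones (median 0.02), and their part in the slopes was not tested.

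The other genes of the same pathways give the setting. Of the 6 other mitochondrial transcription factors edgeR, DESeq2 and limma-voom called 0, and 0 had an unadjusted edgeR p under 0.05. Their log2 fold changes were positive in 6 of 6, the median being 0.14. Mtres1, a factor that acts with the polymerase, had 39.2 ± 4.70 and 43.2 ± 6.94 CPM in WT and cKO (log2 fold change 0.14). Mterf4, which serves the mitochondrial ribosome, had 19.7 ± 2.55 and 22.1 ± 2.45 CPM (0.16), and Mterf2 6.26 ± 0.22 and 7.47 ± 1.87 CPM (0.25). Without cKO replicate 2 the log2 fold change was 0.03 for Mtres1 and 0.10 for Mterf2, and without WT replicate 4 it was 0.09 for Mterf4. Leaving out cKO replicate 1 gave 0.25 for Mterf4 and leaving out WT replicate 3 gave 0.22 for Mtres1, while Mterf2 stood at 0.39 without cKO replicate 3.

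The 17 other genes of replication and nucleoid upkeep had 5 positive and 12 negative log2 fold changes, the median being -0.06. None was called by edgeR, DESeq2 or limma-voom, and 0 had an unadjusted p under 0.05. Atad3a, a membrane ATPase tied to nucleoids, had means of 106 ± 10.1 in WT against 92.96 ± 7.13 CPM in cKO (log2 fold change -0.19), and the nucleotide carrier Slc25a36 had 56.1 ± 9.12 and 66.4 ± 7.73 CPM (0.24). Atad3a was at -0.13 without WT replicate 2, and Slc25a36 at 0.13 without WT replicate 3. The mitochondrial nuclease Exog was the 1 gene of 17 without overlap, against 3.5% of all genes tested, with 2.02, 2.501, 2.09 and 1.13 CPM in WT and 2.71, 2.80, 2.73 and 3.56 CPM in cKO (log2 fold change 0.60, unadjusted p = 0.0553, edgeR adjusted p = 0.886). These levels are low, at most 3.56 CPM. The log2 fold change of Exog was 0.43 without WT replicate 4, its lowest library, and 0.50 without cKO replicate 4, its highest. With WT replicate 4 moved to cKO it was 0.24.

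Among 22 genes of mitochondrial RNA processing and decay, 14 log2 fold changes were positive and 8 negative (median 0.07). An unadjusted edgeR p under 0.05 was found for 4 of 22, Fastkd2, Fastkd5, Mtpap and Ptcd2, each with a higher mean in cKO, against 5.6% of all genes tested (313 higher and 502 lower), and 0 were called by edgeR, DESeq2 or limma-voom. Fastkd5, needed to process mitochondrial transcripts that lack flanking transfer RNAs, had 9.36, 7.36, 6.11 and 10.04 CPM in WT and 8.40, 13.2, 13.4 and 15.4 CPM in cKO. Its cKO replicates 2, 3 and 4 lay above every WT library, and its log2 fold change was 0.62 (95% interval from 0.16 to 1.07, unadjusted p = 0.0121, edgeR adjusted p = 0.867). Its slope on the share was 0.13 per percentage point (unadjusted p = 0.00191, edgeR adjusted p = 0.656). Grsf1, which binds RNA in mitochondrial RNA granules, had 125 ± 13.5 and 147 ± 15.7 CPM (0.23), and Fastk 124 ± 15.1 and 124 ± 8.05 CPM (0.00).

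The regulators of mitochondrial biogenesis numbered 10, of which 4 had a positive and 6 a negative log2 fold change (median -0.13), and 0 of 10 had an unadjusted edgeR p under 0.05 or were called by edgeR, DESeq2 or limma-voom. Ppargc1a, the coactivator PGC-1α, had 37.3, 35.3, 23.5 and 49.98 CPM in WT and 42.8, 47.1, 36.2 and 60.3 CPM in cKO (log2 fold change of 0.35 with a 95% interval from -0.15 to 0.86). Gabpa had 65.4 ± 6.99 and 74.4 ± 14.1 CPM (0.19) and the nuclear receptor Esrra 164 ± 15.9 and 151 ± 19.1 CPM (-0.12). Ppargc1a was at 0.20 without WT replicate 3 and 0.55 without WT replicate 4, Gabpa at 0.06 without cKO replicate 2, and Esrra at -0.05 without cKO replicate 1 and -0.21 without cKO replicate 2. The matrix proteases, of which Lonp1 degrades Tfam, had 3 negative log2 fold changes of 3 (median -0.20). None was called by edgeR, DESeq2 or limma-voom, and 1, Lonp1, had an unadjusted edgeR p under 0.05, against 5.6% of all genes tested. Lonp1 had 259, 241, 238 and 205 CPM in WT and 204, 192, 206 and 193 CPM in cKO (log2 fold change of -0.25 with a 95% interval from -0.48 to -0.02, unadjusted p = 0.0367, edgeR adjusted p = 0.882), and Clpx 96.2 ± 14.1 and 90.9 ± 10.67 CPM (-0.08). For Lonp1 the groups overlapped, with WT replicate 4 within the range of the cKO libraries. Clpx was at -0.17 without WT replicate 3 and at -0.0019 without WT replicate 1.

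The products of the machinery are the transcripts of the mitochondrial genome. The 13 mitochondrial messenger RNAs had a median log2 fold change of 0.36, edgeR and limma-voom called 0 (0.0687% of all genes each) and 6 of 13 had an unadjusted edgeR p under 0.05, against 5.6%. In 5 of them every cKO library lay above every WT library, while 3.5% of all genes tested did not overlap in either direction. Whether this differs from the 10 nuclear genes was not tested. mt-Atp8, a subunit of the ATP synthase, had 7473, 6759, 5669 and 8686 CPM in WT and 10292, 13481, 10498 and 12034 CPM in cKO (log2 fold change of 0.70 with a 95% interval from 0.37 to 1.02, edgeR adjusted p = 0.393). DESeq2 called it with mt-Nd1 and mt-Nd2, against 0.27% of all genes, and edgeR on unfiltered counts called mt-Atp8 and mt-Nd2, against 0.262% (mt-Nd1 and mt-Nd2 are named here after their values were seen). The most abundant, mt-Co1 and mt-Atp6, had log2 fold changes of 0.20 and 0.36. The ribosomal RNAs overlapped between groups, mt-Rnr2 with 22164 ± 4829 and 25849 ± 7433 CPM (0.22) and mt-Rnr1 with 4202 ± 1080 and 4958 ± 1339 CPM (0.24). Without cKO replicate 2 these were 0.07 and 0.10, and without cKO replicate 1 they were 0.39 and 0.41.

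**Figure D4:**
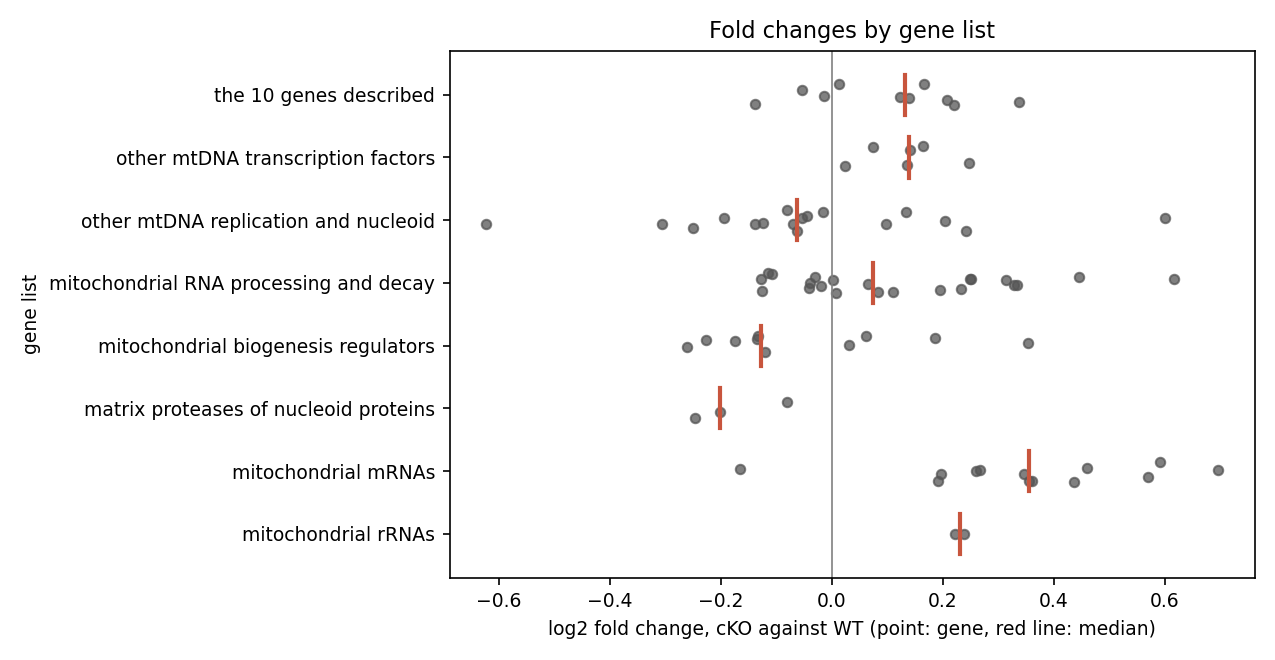
Log2 fold change between cKO and WT of each gene (grey points), by gene list, with the median of the list as a red line. The 10 genes described have a median of 0.13, the mitochondrial messenger RNAs 0.36 and the biogenesis regulators -0.13.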

How the data were processed

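The authors deposited 1 table of estimated counts per Ensembl gene. The submitters' processing notes name StringTie, Salmon and edgeR and the build GRCm38, without their roles. The sources used here give no versions, annotation release or strand setting. The 10 genes and the other gene lists were chosen with earlier results of these data known, and the promoter motifs and the length check after the files were seen. Each of the 10 is named, and from each other list up to 4 called genes, else the 2 most abundant, plus the one of lowest unadjusted p. Likeness used the 5 highest r for Tfam and for Lrpprc.

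Identifiers were named with GENCODE M21 (99.5% matched). Counts were rounded, filtered with filterByExpr, scaled by TMM and tested in edgeR 4.0.16 (quasi-likelihood, robust) under R 4.3.3, with DESeq2 1.42.0 and limma 3.58.1 as alternatives, at an adjusted p of 0.05, after tests on simulated data. No same-group pair agreed within sampling noise (chi-square per degree of freedom at least 14.5). Libraries were grouped by title. The planned correlations with the share are replaced by slopes, since the libraries form 2 sets. Deviations of same-numbered libraries had r from -0.46 to 0.41, the highest for replicate 3. This lies within the range of differently numbered WT and cKO pairs (-0.57 to 0.47), so no block was used. Alternatives changed the scaling, filter, test, block, library set and grouping.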

Additional observations from a re-analysis of the deposited data

Results flagged for a closer look

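In groups of 4 libraries, 1 value stood far from the other 3 in 4 of 66 groups checked, and chance gives about 1 in 20. Tfam in WT replicate 3 was at 26.9 CPM, against 31.9 to 32.9 CPM in the other WT libraries. Tfb2m in the same library was at 66.5 CPM, against 85.2 to 88.5 CPM. Exog in cKO replicate 4 was at 3.56 CPM, against 2.71 to 2.80 CPM in the other cKO libraries. The mitochondrial share of counts in cKO replicate 1 was 26.8%, against 31.2 to 31.7% in the other cKO libraries.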

How the results depend on the processing

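Between cKO and WT the 10 genes had 0 calls under every alternative run. Of 170 alternative log2 fold changes 159 kept their sign and 11 changed it, and of 110 alternative slopes 102 kept it and 8 changed it. Over all genes, 10 calls became 47 with DESeq2, 93 without a count filter, 1 with WT replicate 4 moved to cKO, and 8 to 14 with 1 library left out. In the lists, 0 calls became 3 with DESeq2 and 2 without a filter, among them mt-Atp8 (log2 fold change 0.70 and 0.68). The slope on the share called 0 to 8 genes with 1 library left out, 8 without cKO replicate 1 and 2 without each WT library. With 1 library left out the share difference ran from 3.48 to 5.15 points, and the log2 ratio of Polg to Polg2 from -0.37 to -0.18; with WT replicate 4 moved that ratio was -0.08. Leave-one-out log2 fold changes ran from -0.15 to 0.018 for Polrmt, -0.079 to 0.13 for Tfb1m, -0.073 to 0.059 for Slirp and -0.059 to 0.085 for Fastk, and slopes from -0.012 to 0.026 for Polrmt, -0.0061 to 0.041 for Tfb1m, -0.011 to 0.0045 for Polg2 and -0.0025 to 0.023 for Slirp. Sign changes elsewhere were Polrmt at 0.00059 and Polg2 at -0.012 with WT replicate 4 moved, Tfb1m at -0.0067 and Fastk at -0.014 without a filter, and Fastk at -0.013 with upper quartile factors. With mean transcript lengths, levels were 20.6 (Tfam), 12.3 (Polrmt), 37.0 (Polg), 17.1 (Slirp) and 45.1 (Mterf3) CPM per kb. With the replicate block 7 genes were called over all genes, and the share difference of 4.00 had an exact p of 0.125. The likeness of same-numbered libraries lay within the range of differently numbered pairs, so the numbers give no pairing. The causes were not tested. Among the 10 genes the lowest counts behind a value were 51 (Polg2) and 61 (Tfb1m). Exog, which is not of the 10, had lower CPM than both in every library.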
